A study of Mus musculus with 2 samples.

Results

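The genes described here build the outer barrier of the skin: desmosomal junction proteins, enzymes and secreted proteins of cornification, enzymes that make barrier lipids, the stefin protease inhibitors, and regulators of epidermal differentiation. They were selected from the ratios of these same arrays together with knowledge of barrier function, leaving out the keratins and the barrier gene cluster of Chr 3, so their direction is a description and carries no test. Of 35 genes listed, 32 had a probe set whose annotation gives that gene alone, of 18193 such genes on the arrays, and these 32 were read by 49 probe sets. The genes Dsg3, Stfa1 and Stfa2 had no such probe set and were not analysed here.

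Whole heads of newborn mice of 2 genotypes were profiled, with 1 array for each. Both came from carriers of the T11H translocation between Chr 2 and Chr 9, and neither is a wild type. The MatDp(dist2) head had inherited both copies of distal Chr 2 from its mother and both of distal Chr 9 from its father, where distal means beyond the breakpoint. The PatDp(dist2) head had the opposite origins. A difference between the heads can therefore not be assigned to Chr 2 or to Chr 9. The sources used here state neither how many animals gave each RNA nor of which sex they were, and "head" below stands for the RNA on 1 array.

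The epidermis is renewed from a basal layer attached to the basement membrane. Its cells move outward, replace the cadherins of their desmosomes, and in the granular layer express the enzymes that cross-link proteins under the membrane, cut junctions and process lipids. Dead, flattened cells embedded in lipid are the result, and in the mouse this barrier is completed shortly before birth.

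The values are the deposited signals of the probe sets, which are linear intensities. Over all probe sets the median signal was 201 in MatDp(dist2) and 173 in PatDp(dist2). A signal of 187 served as a floor, below which a signal was not read as a level. Where a gene reached the floor in 1 head only, that head's signal divided by the floor gives a bound, written "at least". A gene was measured where at least 1 head reached the floor, and was called where its ratio or bound reached 2-fold. Medians enter each bound as its value, so a median over genes with bounds may understate the difference. With 1 array per genotype no difference can be set against the spread between animals, no test or p-value is given, and precision is limited by that number of arrays. Within the arrays, probe sets of the same gene differed with a pooled SD of 0.32 in log2 ratio over 4369 genes. The middle 95% of log2 ratios was read only where both signals of a probe set reached the floor, and it depended on brightness. It ended at 0.63 for mean signals from 187 to 256, at 1.22 from 512 to 1024, and at 0.54 above 4096. In the dimmest of these ranges the floor itself limits how far the signals can differ. The value of 0.63 is therefore no sign that dim signals vary less.

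Barrier genes had higher signals in the MatDp(dist2) head than in the PatDp(dist2) head, from 1.18-fold to 21.0-fold among those measured on both arrays, and Cldn1, a tight junction gene, was the only exception among the measured genes. Of 32 genes with a probe set 29 were measured, 19 of them in both heads and 10 as a bound. Called higher in the MatDp(dist2) head were 14, of which 9 by a ratio and 5 by a bound, and 0 were called higher in the PatDp(dist2) head. Over all 12483 measured genes of the arrays, 4.43% were called higher in MatDp(dist2) and 3.47% in PatDp(dist2). With a higher floor, at the 70th percentile of the signals, 8 of 22 measured barrier genes were called, and Dsg1a, Evpl, Cdsn, Lypd3, Tgm3 and Klk7 no longer were. The share of called barrier genes was 48.3%, from which nothing is read because the same ratios helped to choose them. Over every probe set, 17 of the 37 measured were called higher in the MatDp(dist2) head, against 4.15% of all measured probe sets. The median of the 29 genes was at least 1.996-fold, since the 10 bounds among them were entered at their lower limit. That of all measured genes, bounds included, was 1.01-fold.

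**Figure D1:**
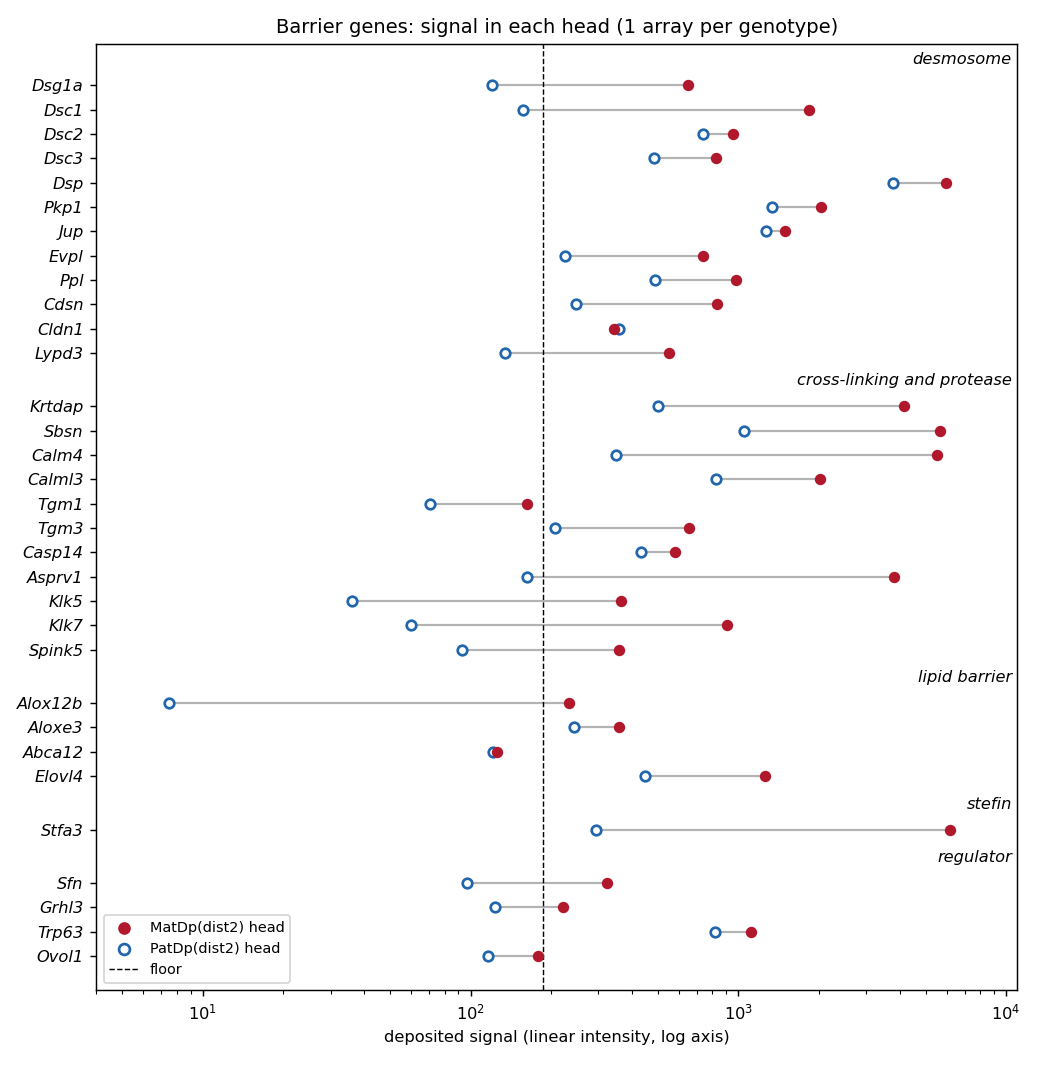
Deposited signal (log axis) of the brightest probe set of each of the 32 genes in the MatDp(dist2) head (filled) and the PatDp(dist2) head (open), by role; the dashed line is the floor of 187, and each point is 1 array. The widest gaps above the floor are those of Stfa3 and Calm4, while Cldn1 and Abca12 have nearly equal signals in both heads.

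Dsc1 and Dsg1a encode the desmosomal cadherins of the outer living layers. The signal of Dsc1 was 1835 in MatDp(dist2) and 157 in PatDp(dist2), at least 9.81-fold higher in the former; pairs of signals are given in this order throughout. Dsg1a had 649 and 120.1, at least 3.47-fold. Both were above the floor in the MatDp(dist2) head alone. Dsg1a has close copies in the genome, and whether its probe set also reads them was not analysed here. That of Dsg1b lay below the floor in both heads.

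Dsc3, found in the basal and lower layers, had signals of 822 and 485, a 1.70-fold difference. Dsc2, which simple epithelia and heart also express, had 956 and 739.7, a 1.29-fold difference. Both were measured in both heads, and neither was called. A second Dsc2 probe set gave 278 and 139.6, at least 1.48-fold in the same direction.

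The plaque proteins, which tie the cadherins to keratin filaments in all layers, differed by less than 2-fold. Dsp, the desmoplakin gene, had signals of 5981 and 3792, and a second probe set with 5321 and 3304 gave nearly the same fold (1.58-fold and 1.61-fold). Their log2 ratios were 0.66 and 0.69, and their mean signals lay a little above 4096. The middle 95% of log2 ratios ended at 0.54 for mean signals above 4096 and at 0.98 from 2048 to 4096. Nothing is read from this, because the same ratios helped to choose the genes. Pkp1, a plakophilin of stratified epithelium, had 2042 and 1341, a 1.52-fold difference. Jup, the gene for plakoglobin, which also serves adherens junctions, had 1493 and 1270.2, a 1.18-fold difference and the smallest of the desmosome genes higher in the MatDp(dist2) head.

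Evpl and Ppl encode envoplakin and periplakin, on which the cornified envelope is laid down. Evpl had signals of 736 and 225, a 3.27-fold difference. Ppl had 978 and 490.2, which at 1.996-fold was just outside the 2-fold threshold. Cdsn, the adhesive corneodesmosin of the outermost junctions, had 834 and 248, a 3.36-fold difference. Lypd3, a membrane-anchored protein of suprabasal cells, had 552 and 134, at least 2.95-fold. With the higher floor Evpl, Cdsn and Lypd3 were not called.

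Cldn1, a claudin that seals the granular layer and is also made by many other epithelia, had signals of 344 and 357, the higher one in PatDp(dist2). Its other 3 probe sets lay below the floor in both heads. In all, 5 of 12 measured desmosome and junction genes were called, beside 4.43% of all measured genes, and their median log2 ratio was 0.88. The order in which these genes are given was chosen after the values were seen, and no difference between layers is read from it.

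The cross-linking and protease genes had a larger median than the desmosome genes, with 7 of 10 measured genes called, beside 4.43% of all measured genes. Their median log2 ratio was at least 1.98, since 4 of the 10 were bounds. This group also holds secreted and calmodulin-like proteins, whose medians were 2.74 and 2.63. The only measured transglutaminase of the group was Tgm3 with 1.67. The median of its 4 proteases was at least 1.62, with Asprv1, Klk5 and Klk7 entered as bounds. Sbsn and Krtdap lie near each other on Chr 7 and encode small proteins that differentiating keratinocytes secrete. Sbsn had signals of 5651 and 1053, a 5.37-fold difference, and its other bright probe set gave 5216 and 1069.6. The dimmest one gave 759 and 38.3, at least 4.06-fold. Krtdap had 4153 and 501, an 8.29-fold difference. All 4 probe sets of this pair were called.

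The calcium-binding pair of the calmodulin family lies on Chr 13. Calm4, a calmodulin-like protein of the outer epidermis, had signals of 5513 and 349.8, a 15.8-fold difference. Calml3, a calmodulin-like protein of stratified epithelium, had 2010.4 and 824, a 2.44-fold difference that was the nearest to the threshold among called genes, followed by Elovl4. Both genes were bright in the MatDp(dist2) head and above the floor in the other.

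Transglutaminases join the proteins of the cornified envelope by covalent bonds. Tgm3, the transglutaminase of hair follicles and outer epidermis, had signals of 656 and 206, a 3.19-fold difference, and a second probe set gave 296 and 56.8, at least 1.58-fold. Tgm1, the membrane-bound form, had 163 and 70.4, below the floor in both heads, and gets no fold. Tgm3 is the only one of the 32 genes on Chr 2, and in the RefSeq gene order it lies proximal of H13, an imprinted gene of distal Chr 2; the labels do not place the breakpoint.

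The proteases of the cornified layer were above the floor in the MatDp(dist2) head. Asprv1, a skin aspartic protease that processes profilaggrin, had signals of 3809.5 and 162, at least 20.4-fold. Klk7 and Klk5, the kallikreins that cut the outermost junctions during shedding, had 908 against 59.8 and 365 against 36.0. These were at least 4.86-fold for Klk7, which was called, and at least 1.95-fold for Klk5, which was not. Spink5, whose product inhibits these kallikreins, had 358 and 92.8, at least 1.91-fold. In the PatDp(dist2) head all 4 of these signals were below the floor, so the order of these bounds is simply the order of their signals in the MatDp(dist2) head.

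Casp14, a caspase of cornifying cells that helps to break down filaggrin, gave readings of unequal size on its 2 probe sets. The brighter one had signals of 582 and 433, a 1.34-fold difference. The other had 232 and 6.20, at least 1.24-fold, which is a weak bound because 232 is close to the floor. The name of the brighter one ends in _x_at, which marks probe sequence shared with other transcripts, and which of the 2 is nearer to the Casp14 level was not tested.

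Of the barrier lipid genes 1 of 3 measured was called, beside 4.43% of all measured genes. Elovl4, which makes the very long fatty acids of barrier ceramides, had signals of 1256 and 447, a 2.81-fold difference, and its other probe set gave 479.8 and 137, at least 2.57-fold. It lies on Chr 9, and the sources used here do not place it against the breakpoint. Alox12b and Aloxe3 act in sequence to oxidise such ceramides. Alox12b had 233 and 7.50, at least 1.25-fold, and Aloxe3 had 358 and 244, a 1.47-fold difference. Abca12, the transporter that loads lipid into secretory granules, had 126 and 121, below the floor in both heads.

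Stfa3 had the largest ratio of the barrier genes measured in both heads. Any of the 10 genes given only as a bound, Asprv1 and Alox12b among them, may exceed it. Stfa3 encodes a stefin A, an inhibitor of cysteine proteases made in epidermis and in neutrophils. Its signals were 6160.2 and 293, a 21.0-fold difference. The stefin A genes of Chr 16 are close copies of each other, and whether this probe set reads more than Stfa3 was not analysed here. Of 13 genes of neutrophils and other myeloid cells on the arrays 6 were measured, and all 6 had the higher signal in PatDp(dist2). Their log2 ratios ran from -1.56 for S100a8 (448 and 1320.2) to -0.04. Called higher in PatDp(dist2) were 2, beside 3.47% of all measured genes. Of the 13 genes 7 were below the floor in both heads, among them Elane and Mpo, and the signals of all 13 summed to 4423 and 6653. The part of neutrophils in the Stfa3 signals was not tested.

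None of the regulators was called. Trp63, the p63 transcription factor that maintains stratified epithelia, had signals of 1114 and 816, a 1.36-fold difference. Its second probe set above the floor had 188 and 225, in the other direction, and 2 more were below the floor in both heads. Sfn, the 14-3-3 protein of differentiating keratinocytes, had 324 and 97.3, at least 1.73-fold. Grhl3, a grainyhead transcription factor required to form the barrier, had 221 and 123, at least 1.18-fold. Ovol1, a zinc finger repressor that helps cells leave the basal state, had 179 and 116, below the floor in both heads. The dimness of Grhl3 and Ovol1 limits what their probe sets can show.

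**Figure D2:**
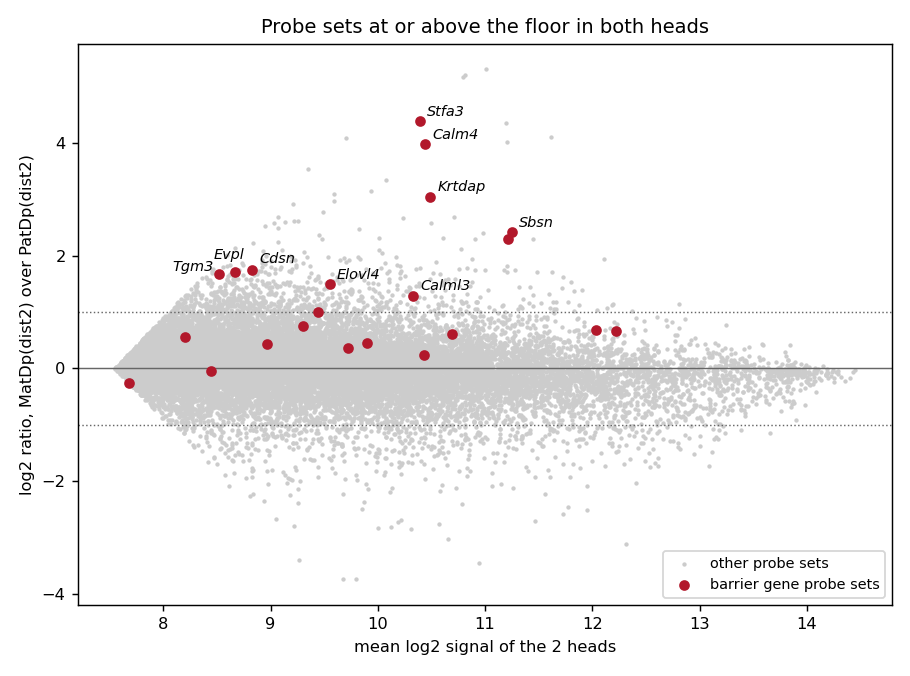
Log2 ratio of signals, MatDp(dist2) over PatDp(dist2), against the mean log2 signal of the 2 heads for probe sets at or above the floor in both (grey), with those of the barrier genes in red; dotted lines mark 2-fold. Stfa3, Calm4, Krtdap and Sbsn stand above most probe sets of like brightness, and Dsp, the brightest, lies between 0 and 1.

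The genes with several probe sets allow a comparison within the arrays. Of the 49 probe sets, 45 had the higher deposited signal in MatDp(dist2), and the other 4 belong to Cldn1 and Trp63. Of the 49, however, 12 lay below the floor in both heads, and of the 37 measured 2 were lower in MatDp(dist2). Over all 12483 measured genes, by 1 probe set each, 6485 had the higher signal in MatDp(dist2) and 5997 in PatDp(dist2). Nothing is read from these counts, because the ratios helped to choose the genes. Of the 3 genes with 2 or more probe sets above the floor in both heads, Dsp gave log2 ratios of 0.66 and 0.69, Sbsn gave 2.42 and 2.29, and Trp63 gave 0.45 and -0.26. The Sbsn names end in _a_at and _x_at, and 1 of the Dsp names ends in _s_at. Whether the probe sets of a pair share probe sequence was not analysed here. Probe sets of 1 gene share the RNA and the array, so their closeness says nothing about other animals.

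**Figure D3:**
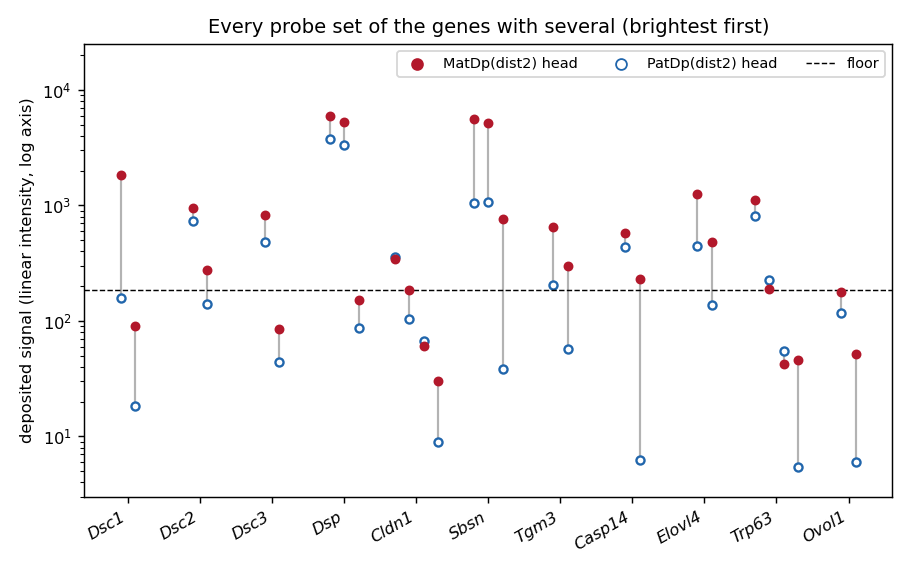
Deposited signal (log axis) of every probe set of the 11 genes with several, in the MatDp(dist2) head (filled) and the PatDp(dist2) head (open); the dashed line is the floor of 187. The 2 bright probe sets of Dsp and of Sbsn have nearly equal gaps. The gaps of the Casp14 probe sets look unequal, but the wider one ends at 6.20, below the floor, and is not read as a level.

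Promoters were read for short motifs of epidermal and general factors, because the called genes differ in the same direction. RefSeq promoters (GRCm38.p6) were given for 22 of the 35 genes, of which 10 were called, and the 250 bases before each start were searched on both strands. The grainyhead motif AACCGGTT was in 0 of these 22 genes and in 0.116% of all 32851 promoters. The AP-1 motif, TGACTCA or its reverse complement TGAGTCA, was in the promoter of 1 gene, Krtdap, and in 4.46% of all promoters. The KLF motif GGGTGTGG was in those of 3 genes, Stfa3, Alox12b and Casp14, and in 3.20% of all. The TATA motif TATAAA was in those of 2 genes, Krtdap and Tgm3, and in 12.4% of all. A match of letters is not a site of binding, and 17 of the 22 genes held none of these motifs in this window. The called genes with a match are printed 5′ to 3′ on the strand of the gene, with the matches in capitals.

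Krtdap, chr7:30787655-30787904, plus strand, AP-1 and TATA motifs: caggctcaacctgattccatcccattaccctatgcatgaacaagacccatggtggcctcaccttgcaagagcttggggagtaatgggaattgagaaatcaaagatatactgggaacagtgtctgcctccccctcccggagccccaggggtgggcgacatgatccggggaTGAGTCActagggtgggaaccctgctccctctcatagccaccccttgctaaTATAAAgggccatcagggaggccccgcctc
Stfa3, chr16:36455393-36455642, minus strand, KLF motif: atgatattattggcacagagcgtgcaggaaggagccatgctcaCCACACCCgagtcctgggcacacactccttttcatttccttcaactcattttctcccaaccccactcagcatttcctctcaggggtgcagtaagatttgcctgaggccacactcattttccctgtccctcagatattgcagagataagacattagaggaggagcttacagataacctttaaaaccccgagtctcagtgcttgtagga
Tgm3, chr2:130012090-130012339, plus strand, TATA motif: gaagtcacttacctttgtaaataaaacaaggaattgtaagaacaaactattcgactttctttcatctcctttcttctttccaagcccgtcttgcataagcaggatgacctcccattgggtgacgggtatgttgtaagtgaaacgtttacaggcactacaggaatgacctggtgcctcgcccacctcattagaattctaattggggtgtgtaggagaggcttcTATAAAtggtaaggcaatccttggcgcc

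The TATA motif began 30 bases before the start in Krtdap and 28 in Tgm3. These are the genes of a secreted protein and of a cross-linking enzyme of the outer layers.

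Other genes of the same pathways were read from lists that leave out the 35. Ratios helped to choose the 35, and such a choice can by itself make the medians of these lists the smaller ones. The medians are given as a description, and the difference was not tested. For 15 measured further genes of desmosomes, adherens, gap and tight junctions, the median log2 ratio was 0.19. Called higher in the MatDp(dist2) head was 1, beside 4.43% of all measured genes. That gene was Pkp3, a plakophilin of stratified and simple epithelia, with signals of 615 and 293. Gjb2, a gap junction gene, had 1162 and 582, and Perp, a desmosome protein required in skin, had 3091 and 1876. At the other end Dsg2, the cadherin of simple epithelia and heart, had 493 and 824.

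Of 15 measured further proteases, inhibitors and cross-linking enzymes, 2 were called, both higher in MatDp(dist2), beside 4.43% of all measured genes. The median log2 ratio of the 15 was 0.30. The called genes were Serpinb3a, with signals of 500.5 and 13.3, and Serpinb5, with 700.4 and 308, both of the serpin family of protease inhibitors. Klk8, a further kallikrein, followed with 492 and 251. Cstb, the stefin B that most tissues express, had 6138 and 8000.5.

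Of 21 measured further lipid genes, 1 was called in each direction, beside 4.43% of all measured genes in MatDp(dist2) and 3.47% in PatDp(dist2). The median log2 ratio of the 21 was 0.09. Lipm, an epidermal lipase, had signals of 378 and 72.8, at least 2.02-fold. Gdpd1 had 940.5 and 528, and Sult2b1, which sulphates cholesterol, had 297 and 19.5, at least 1.59-fold. Dgat2, an enzyme of triglyceride synthesis that fat cells also express, had 1422 and 3526, a 2.48-fold difference in the other direction.

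Of 22 measured further regulators, 2 were called higher in the MatDp(dist2) head, beside 4.43% of all measured genes. The median log2 ratio of the 22 was 0.19. Prdm1, a repressor of granular and other cells, had signals of 597 and 252, and Pou3f1, a POU factor of keratinocytes and of neural cells, had 552 and 245. Hes1, a target of Notch signalling, had 752 and 391. Cebpa, shared with fat cells, had 1476 and 2718.

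Genes of the basal layer and of epithelia in general had medians at or a little below 0. Of 11 measured genes of the basal layer and hemidesmosomes 0 were called in either direction, with a median log2 ratio of -0.07 (0.03 with the mean over the probe sets of each gene) and summed signals of 21861 and 22684. The list did not go 1 way, with 5 genes higher in MatDp(dist2) and 6 in PatDp(dist2). The keratins Krt15 (3184 and 1759), Krt5 (4407 and 2796) and Krt14 (2359 and 1517) were at the upper end. They were 1.81-fold, 1.58-fold and 1.56-fold higher in MatDp(dist2). Cd151, a tetraspanin that many tissues express, had 2198 and 4168 at the lower end. Of 11 measured genes of epithelia in general 1 was called, Rab25 with 559 and 267. Over all measured genes 4.43% were called higher in MatDp(dist2) and 3.47% in PatDp(dist2). The median log2 ratio of the 11 general epithelial genes was -0.21, and the summed signals were 9302 and 10768. Cldn3 and Elf3 came next, with 438 against 323 and 476 against 418, and Krt18, of simple epithelia, had 1007 and 1755. The difference between these lists and the barrier genes was not tested, since there is 1 array per genotype.

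Markers of other stratified tissues of the head were read as well, and their called genes were higher in MatDp(dist2). Of 10 measured genes of oral and tongue epithelium 8 were called higher in MatDp(dist2), beside 4.43% of all measured genes. The median log2 ratio of this list was 1.42 (1.81 with the higher floor and 1.88 with a lower one, at the 30th percentile). Its signals summed to 26342 and 8195. Crct1 (3682 and 85.0), Rptn (3034 and 161) and Sprr3 (1951 and 109) led this list and lie in the Chr 3 barrier cluster, which epidermis may also use. Krt13, a keratin of oral lining, had 4420.2 and 1260.4, Krt4 had 7551 and 3721, while the transcription factors Pax9, with 221 and 351, and Pitx1, with 363 and 429, had the higher signal in PatDp(dist2). Of 10 measured hair follicle genes 5 were called in the same direction, led by Tchh (922 and 119.8), Krt25 (756 and 269) and Krt27 (498 and 129). The median log2 ratio of this list was 0.78 (0.40 with the higher floor and 1.14 with the lower one). The other 5 measured genes were not called. Of these Shh, a signal of the follicle and of other tissues, had 1133 and 1428, and Msx2 had 258 and 259.8. The signals of all 12 hair follicle genes on the arrays, 2 of them below the floor in both heads, summed to 5354 and 3054. The part of oral epithelium and hair in the differences of the barrier genes was not tested.

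Of the tissues outside the epithelium, the neuron, muscle and fibroblast lists were read. Of 10 measured neuron genes 7 were called higher in MatDp(dist2), their median log2 ratio was 1.14, and their signals summed to 34954 and 18482. Over all measured genes 4.43% were called higher in MatDp(dist2) and 3.47% in PatDp(dist2). All 10 measured skeletal muscle genes were brighter in PatDp(dist2), and 1 of them was called, Mb, the myoglobin gene, with 224 and 2983. Their median log2 ratio was -0.40, and their signals summed to 98172 and 127549. Genes of dermal fibroblasts, the cells under the epidermis, had a median log2 ratio of -0.05, whose sign turned with quantile normalization (0.11) and a lowess fit (0.16), with 0 of 9 called, and Lum, a matrix proteoglycan, had 5393 and 5365. The lowest deposited signal was 0.1 on both arrays, so a signal above 0 does not show that a tissue was present. The heads were whole and mixed, so that more cells of a layer and more RNA per cell cannot be told apart, and unequal amounts of skin, mouth, brain and muscle in the 2 preparations were not tested as a source of the differences.

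**Figure D4:**
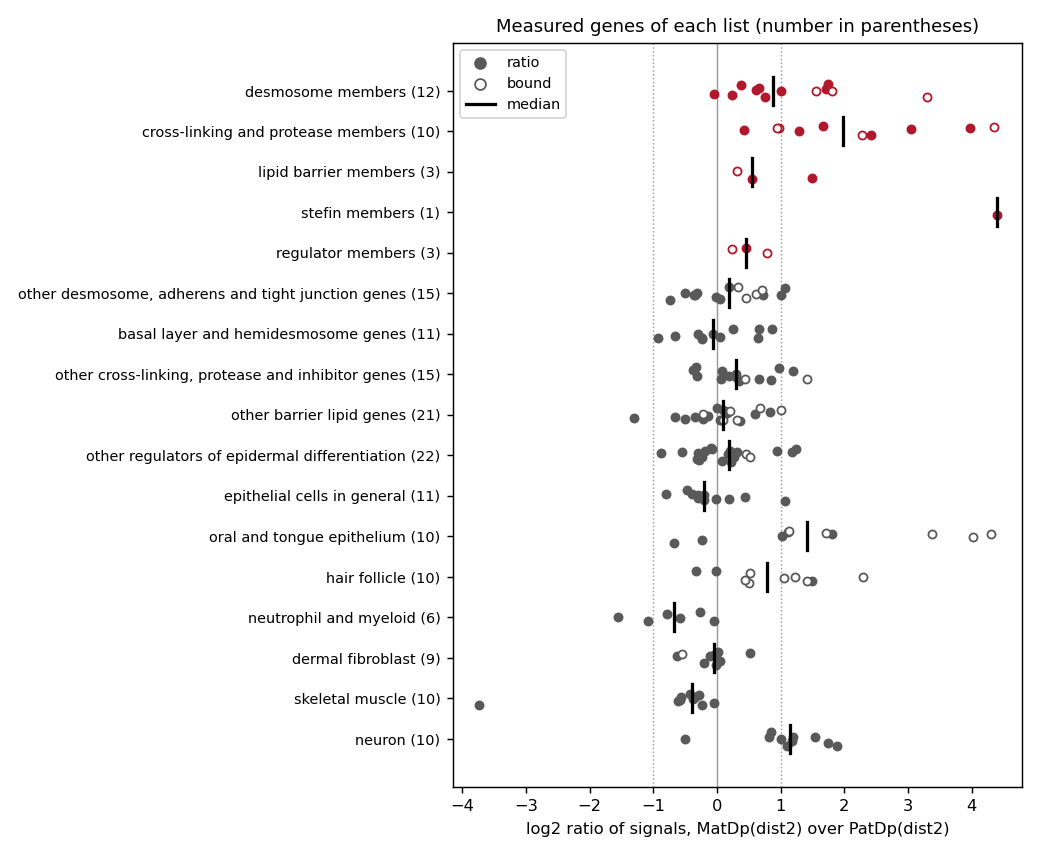
Log2 ratio of signals, MatDp(dist2) over PatDp(dist2), of each measured gene by list, with barrier genes in red, ratios of signals above the floor in both heads as filled points, bounds (1 head below the floor) as open points, medians as bars and 2-fold as dotted lines. The medians of the cross-linking and protease group (1.98) and the oral list (1.42) are to the right of 1. Those of the basal (-0.07) and general epithelial lists (-0.21) are near 0.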

How the data were processed

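RNA from MatDp(dist2) and PatDp(dist2) newborn heads was labelled with biotin and hybridised to Affymetrix arrays of 45101 probe sets, 1 array per genotype, per the labels' protocols. The signals deposited by the authors are an intensity on a linear scale, made with MAS5 and GCOS per the submitters' processing notes, without versions. With 2% of probe sets trimmed at each end, the mean of both arrays was 500.0, so they carry a common scaling. The genome build is not named, and detection calls were not used here. MAS5 signals are noisy when low, which the floor addresses.

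Besides 64 control probe sets, which were dropped, the platform annotation gave 34945 probe sets 1 gene symbol and 932 several, and did not list 9160. Symbols were updated by gene ID in the RefSeq table of GRCm38.p6, where 34741 probe sets had one. Only names, chromosomes and the order of genes were taken from it, and promoter sequences from the matching RefSeq table. The brightest probe set by mean log2 signal stood for each gene. As floor served a signal of 187, the median of the 50th percentiles of both arrays. Steps ran in Python 3.11.15 with pandas 2.3.3 and were tested on simulated data.

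The 35 genes, the 12 other lists and the alternatives were chosen with earlier results of these data known. Named are every barrier gene, and of each other list the 3 highest and the 1 lowest measured log2 ratios, except for the neuron, muscle, fibroblast and myeloid lists, which are given by counts with at most 1 example; Krt4, Krt13, Pitx1, Msx2, Mb, Elane, Mpo and Dsg1b were named after their values were seen. Proteins of the stefins were to be printed but their sequences were not used here. Alternatives were median centring, quantile normalization, a lowess fit, other floors, an offset of 100, other choices of probe set and other fold thresholds.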

Additional observations from a re-analysis of the deposited data

How the results depend on the processing

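The count of 14 barrier genes called higher in the MatDp(dist2) head was 14, and the same genes, under median centring, quantile normalization, the lowess fit, the offset of 100, the mean over probe sets and the choice of plain _at probe sets. It fell to 8 with the floor at the 70th percentile, where Dsc1, Krtdap, Sbsn, Calm4, Calml3, Asprv1, Elovl4 and Stfa3 were left. Over all measured genes 2.95% were then called higher in MatDp(dist2) and 3.49% in PatDp(dist2), so that the larger share turned to PatDp(dist2). It was 19 both with no floor and with a lower one, at the 30th percentile, adding Tgm1, Klk5, Spink5, Alox12b and Sfn, with 9.07% and 5.48% of all measured genes called higher in MatDp(dist2) and 6.18% and 3.63% in PatDp(dist2). At a 3-fold threshold it was 11, with 146 of all 12483 measured genes called higher in MatDp(dist2), and at 1.5-fold 21, with 1496 of them. No barrier gene was called higher in the PatDp(dist2) head under any of these 11 alternatives. The median log2 ratio of the measured barrier genes was 1.56 with the lower floor and 1.58 with no floor. That of the lipid genes was 1.02 both with the lower floor and with no floor. With the higher floor Elovl4 was the only lipid gene measured, so the 1.43 found there is its own log2 ratio and not that of a group. The median of the cross-linking and protease genes was 2.42 with no floor and 1.56 with the offset of 100. The log2 ratio of Stfa3 was 3.73 with the higher floor and 3.99 with that offset. A floor or an offset shortens the ratio of dim genes by construction. The dermal fibroblast median changed sign with quantile normalization (0.11) and the lowess fit (0.16), and the basal list with the mean over probe sets (0.03). No paired analysis was possible because each genotype has 1 array. Leaving out a replicate was not possible for the same reason.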
